A study of Mus musculus with 48 samples.

Results

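Potassium channel genes were described in the nucleus accumbens shell, part of the ventral striatum, which receives dopamine input and takes part in reward. Members were all protein-coding genes whose symbols start with Kcn, kept where the value was 14 or more in at least 12 libraries. Of 93 such genes in the table of 37620 genes, 65 were kept, among 15468 genes kept in all. The animals were HS-CC mice, an outbred heterogeneous stock named after the collaborative cross, and 48 of them were measured, with 1 poly(A) RNA library per mouse. Their lines had been selected for high ethanol preference (High) or low ethanol preference (Low) and were taken at selection generation 4. Each line gave 12 females and 12 males, and the labels named no treatment, allele or age. Each line was a single population, and family membership is not known here. The p-values therefore measure the spread between these mice.

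Potassium channels let potassium leave or enter the cell along its gradient, and so set the resting potential, shape the action potential and limit repetitive firing. Voltage-gated (Kv) channels open on depolarisation, inward rectifiers (Kir) hold the membrane near the potassium equilibrium, tandem-pore (K2P) channels carry leak current, and others open with intracellular calcium or sodium. Medium spiny neurons, the projection neurons of the striatum, are known for strong inward rectification and A-type current, which keep them hyperpolarised until input is strong. Auxiliary genes such as the KChIP and Kv beta families make no pore and bind the pore-forming subunits.

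What joins the pore-forming families is a short stretch of coding sequence, the selectivity filter, where backbone oxygens of neighbouring residues hold the potassium ion. It is shown here for the most abundant kept member of most pore-forming families, or, for the small-conductance calcium-activated (SK) channels, for Kcnn1. The composition below separates pore-forming from auxiliary members by family name, not by a match to this stretch. Each line gives 45 coding bases, 5′ to 3′, with the 5 filter codons in capitals, read from GENCODE M21 transcripts on GRCm38.
Kcnj4: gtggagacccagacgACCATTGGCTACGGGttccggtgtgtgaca
Kcna1: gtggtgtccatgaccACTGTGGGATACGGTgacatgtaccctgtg
Kcnc1: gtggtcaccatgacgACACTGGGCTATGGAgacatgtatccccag
Kcnd2: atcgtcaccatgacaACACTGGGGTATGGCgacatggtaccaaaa
Kcnf1: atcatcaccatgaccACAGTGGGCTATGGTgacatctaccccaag
Kcnh3: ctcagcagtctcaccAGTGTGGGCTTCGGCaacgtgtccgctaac
Kcnt1: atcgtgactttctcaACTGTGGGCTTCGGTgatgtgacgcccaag
Kcnma1: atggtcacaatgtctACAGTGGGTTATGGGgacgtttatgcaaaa
Kcnn1: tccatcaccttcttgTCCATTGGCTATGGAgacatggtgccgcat
Kcnk2, first filter: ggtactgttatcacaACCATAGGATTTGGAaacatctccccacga
Kcnk2, second filter: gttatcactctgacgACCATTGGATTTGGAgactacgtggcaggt

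The search looked in the coding strand for 5 codons in frame, NCN or AGN, then NTN, GGN, TNN and GGN, where N is any base. At least 1 such run occurred in 55 of 65 members (84.6%), against 744 of 21614 coding genes (3.44%). All kept Kv, Kir, sodium-activated and SK members held a match. Of the 6 K2P members 4 held 2, since a K2P subunit carries a pair of pore loops. The SK gene Kcnn2 also held 2, which made 5 such members in all. Its run at codon 618 opens with TCC, as in Kcnn1, and that at codon 228 opens with AGC. A match alone does not show that a run is a filter. No match was present in the 4 KChIP genes, the 3 Kv beta genes, the KCNE gene and Kcnmb4, a beta subunit of the large-conductance calcium-activated (BK) channel. Kcnk1, the K2P channel TWIK-1, also held none of these letters. Kcnh3 opens the filter with a serine codon of the AGN kind, as do the other kept ether-a-go-go genes except Kcnh5, which has a threonine codon. Kcnn1 opens it with a TCN serine codon. The Kv1, Kv3, Kv4, silent Kv and Kir genes shown have threonine codons there.

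Filter codons lay within 1 exon in most of these genes. In Kcnj4 they were at chr15:79485367-79485381 on the minus strand, in the last of 2 exons of the transcript used. In Kcna1 they were at chr6:126642228-126642242 on the minus strand, in its single exon. Kcnt1 had them at chr2:25894367-25894381 on the plus strand, in exon 11 of 32. The codons of Kcnd2 were split by an intron between exons 1 and 2 of 6, as were those of Kcnd1 and Kcnd3 between neighbouring exons, and the first filter of Kcnk2 was split between exons 3 and 4 of 7.

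Column totals, which the normalisation sets, lay between 13579559 and 14561911 normalised counts, with 19708 to 20888 genes above 0. The 65 genes summed to 48302 to 62554 normalised counts per mouse, a mean of 0.395% of the total. That sum was 55344 ± 3976 (SD, n = 24) in High mice and 55674 ± 4268 in Low mice, which differed by less than the spread within a line. Medium spiny markers were abundant: all 13 were kept, and Ppp1r1b, the striatal phosphoprotein DARPP-32, ran from 19811 to 35073. Some libraries stood apart. Slc17a7, the vesicular glutamate transporter of cortical pyramidal cells, had a median of 15.5 and a highest value of 3886. The pyramidal marker mean was highest in Low male replicate 6 (9.27 on the log2 scale, against a median of 6.60), then in High male replicate 1 (8.78). The same High male had the lowest median correlation with other libraries, at 0.968, and the highest value of 17 of the 65 channel genes. Low male replicate 6 held the highest value of 9 more.

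Levels of different genes were compared per kilobase (kb) of annotated exon, as the mean over 48 mice. A few genes made up most of the message. Kcnip2, which encodes the Kv4-binding subunit KChIP2, led at 1985 normalised counts per kb. Kcnj4, the inward rectifier Kir2.3, followed at 1248, and Kcna1, the delayed rectifier Kv1.1, at 599. The 5 highest genes held 43.6% of the summed value per kb, the 10 highest 60.6% and the 20 highest 82.7%. Next came Kcnab2 at 485, Kcnt1 at 452 and Kcnab1 at 444 normalised counts per kb. Kcnab1 and Kcnab2 encode Kv beta subunits and Kcnt1 encodes the sodium-activated channel Slack. Between 385 and 305 lay Kcnh3, Kcnk2, Kcnip3, Kcnd2 and Kcnk1, among others. Kcnip4, Kcnj10, Kcnq5, Kcna5, Kcnip1, Kcnh2, Kcnh1 and Kcnf1 followed, from 277 down to 181. At the other end stood Kcnb2 at 1.67 and Kcnq1 at 2.48 normalised counts per kb.

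**Figure D1:**
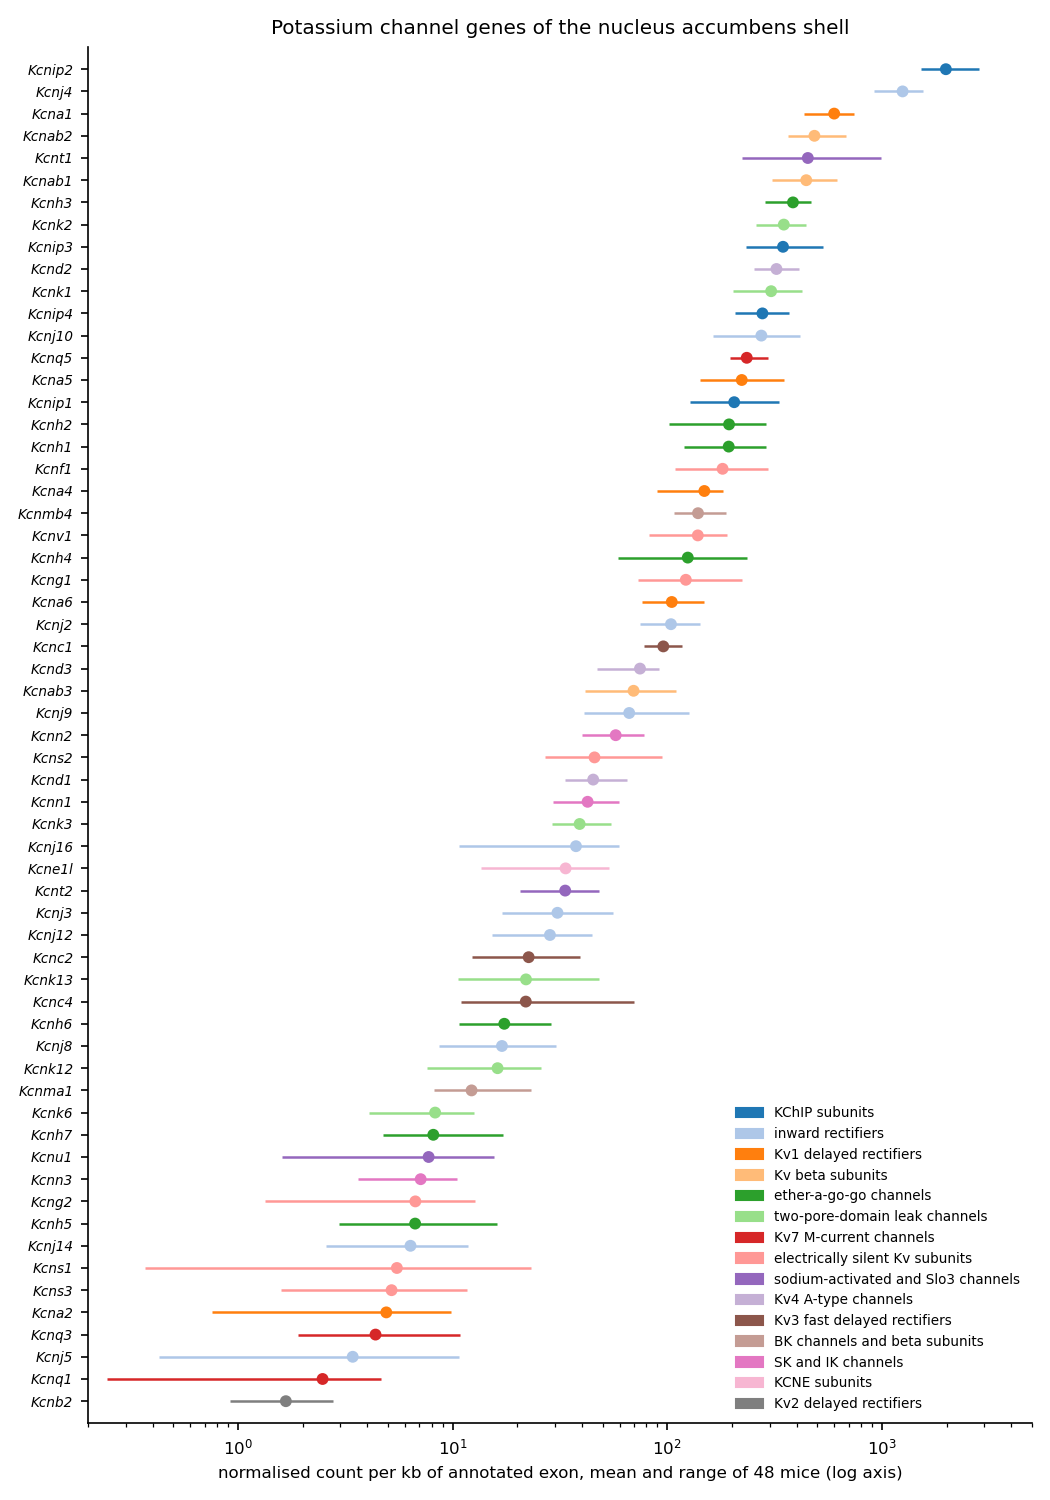
Mean level of 61 of the 65 kept potassium channel genes (dot) and its range over 48 mice (line), in normalised counts per kb of annotated exon on a log axis, coloured by family. Kcnip2 (1985) and Kcnj4 (1248) lie above all others and Kcnb2 (1.67) is lowest.

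By family, auxiliary genes were a large share. The 9 auxiliary members held 36.5% ± 1.52 (SD, n = 48) of the summed value per kb and the 56 pore-forming members the remaining 63.5%. KChIP genes alone held 25.8% ± 2.13 and Kv beta genes 9.14% ± 0.811. On mm9, the build of the deposited tables, the lowest listed exon start of Kcnip2 (ENSMUSG00000025221) is 45866329 on chromosome 19 and that of Kcnj4 (ENSMUSG00000044216) is 79314148 on chromosome 15. In each mouse the KChIP share lay between 20.8% and 31.3%, most of it Kcnip2. Kcnip2 per kb was on average 6.32 ± 1.68 times Kcnd2 per kb, the highest of the Kv4 genes whose channels it binds.

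Inward rectifiers held the largest share of the pore-forming families per kb, at 16.7% ± 1.45 (SD, n = 48). That rank rests on the division by length: without it the Kv7 genes held 13.2% and inward rectifiers 9.91%. Within it Kcnj4 stood at 1248 normalised counts per kb and Kcnj5, a subunit of G protein-gated channels, at 3.42. Kcnj10, the astrocytic channel Kir4.1, reached 274 and Kcnj2, Kir2.1 of the same subfamily as Kcnj4, 104. The Kv1 delayed rectifiers held 9.90% ± 0.789, from Kcna1 at 599 to Kcna2 at 4.91 normalised counts per kb. The ether-a-go-go genes held 8.50% ± 0.797, from Kcnh3 at 385 to Kcnh5 at 6.69. Each of these families held 1 or a few abundant genes and others at far lower levels.

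K2P leak channels held 6.79% ± 0.681 of the summed value per kb, from Kcnk2, the mechanosensitive channel TREK-1, at 349 to Kcnk6 at 8.29. The Kv7 genes, whose channels carry the M-current, held 5.34% ± 0.333, with Kcnq5 at 235 and the lowest gene, Kcnq1, mainly known from heart and epithelia, at 2.48. Kv7 had the smallest SD relative to its mean of any family holding over 1%. The silent Kv subunits, which form channels only with Kv2 subunits, held 4.62% ± 0.587, from Kcnf1 at 181 to Kcns3 at 5.20. Their Kv2 partners held only 0.183% ± 0.0369.

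Smaller shares went to the A-type and fast-spiking families. Kv4 genes held 4.06% ± 0.421, from Kcnd2 at 323 to Kcnd1 at 45.2 normalised counts per kb. Kv3 genes, known for fast repolarisation in interneurons, held 1.88% ± 0.215, from Kcnc1 at 95.8 to Kcnc4 at 21.9. BK genes held 1.39% ± 0.167, with the neuronal beta subunit Kcnmb4 at 139 and the pore gene Kcnma1 at 12.3. Without division by length the gap was narrower, with mean log2(normalised count + 7) values of 8.87 and 7.72. SK genes held 0.986% ± 0.137, from Kcnn2 at 57.5 to Kcnn3 at 7.10. Kcne1l, the only KCNE gene kept, stood at 33.6 and held 0.310% ± 0.0865. The sodium-activated and Slo3 group held 4.49% and varied most relative to its mean, with an SD of 1.46 and a range from 2.65% to 8.54%; Kcnt1 made up most of it and Kcnu1, the sperm channel Slo3, was its lowest gene at 7.73.

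**Figure D2:**
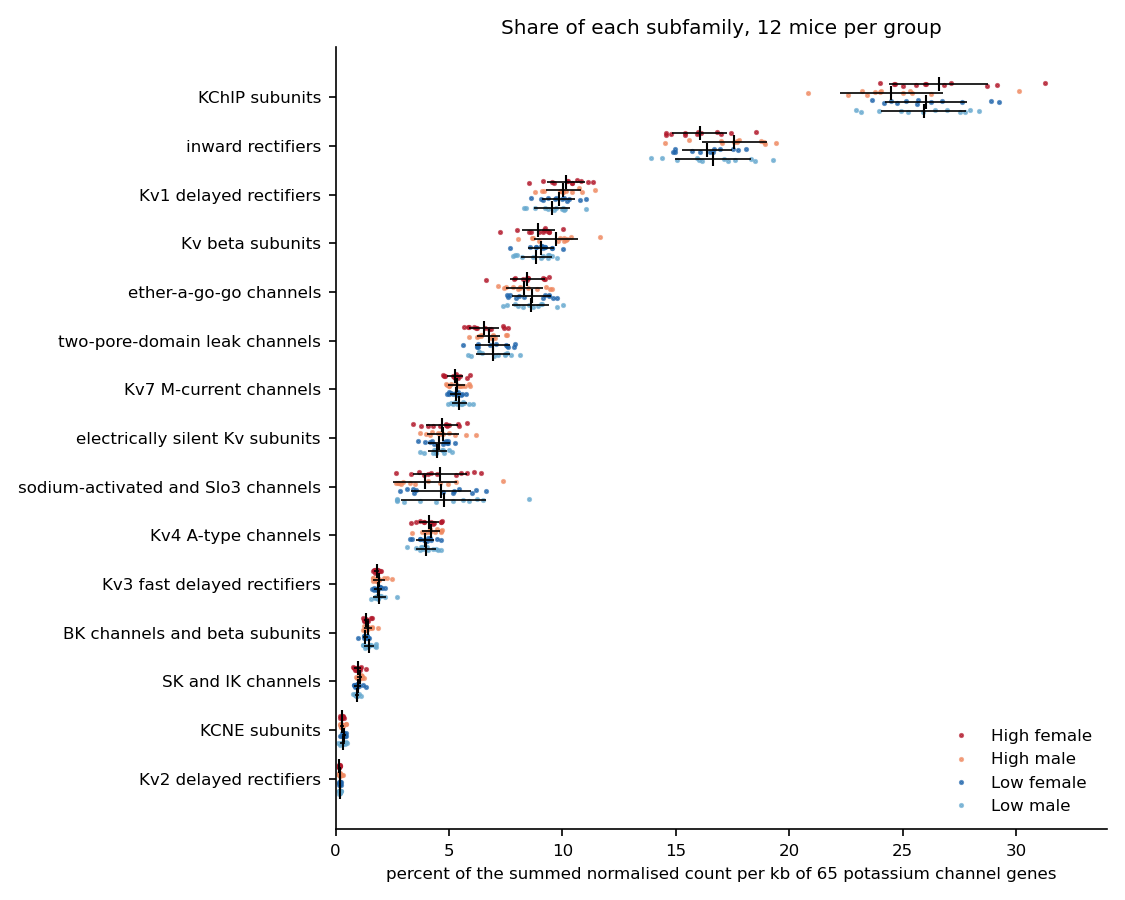
Percent of the summed normalised count per kb held by each family, with 1 dot per mouse and the mean (tick) and SD (bar) of each group of 12 mice. The 4 groups overlap in every family, and the sodium-activated group has the widest spread relative to its mean.

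The shares by line and sex overlapped in every family. KChIP genes held 26.6% ± 2.17 in High females, 24.5% ± 2.28 in High males, 26.0% ± 1.80 in females of the Low line and 25.9% ± 1.89 in males of the Low line (SD, n = 12 each). Inward rectifiers held 16.0% ± 1.22, 17.6% ± 1.43, 16.4% ± 1.11 and 16.6% ± 1.68 in the same order. High males thus had the lowest mean of the first family and the highest of the second, within the range of the other groups. No test was run on shares, which add up to a fixed sum.

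Just inside the value threshold were Kcnq1, at 14 or more in 12 libraries, Kcns1 in 20 and Kcnj5 in 23. Just outside were Kcnk10 in 9, Kcnk4 in 6 and Kcna3 in 5 libraries. Of the 28 genes not kept, 18 reached 14 in no library, among them Kcnj13, Kcnh8 and Kcne2. Kcnj11, the Kir6.2 pore of ATP-sensitive channels, was not analysed here. It was not among the genes matched by symbol, so its level is not known and the inward rectifier share leaves it out.

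The first comparison asked whether channel transcripts differed between the selected lines. No member did at an adjusted p under 0.05: limma called 0 of 65 genes for High minus Low averaged over the sexes, against 0.291% of all genes tested. The unadjusted p was under 0.05 in 8 members, 12.3% of them against 9.08% of all genes, and 6 of these were higher and 2 lower in High. Over all 65 the median log2 difference was 0.01, and 35 lay above 0, beside a median of -0.0029 over all genes. The median size of the difference, regardless of sign, was 0.07 for members and 0.05 for all genes.

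Kcns1, the silent subunit Kv9.1, had the smallest p; on mm9 its lowest listed exon start is 163989355 on chromosome 2. High females ran from 1 to 19 normalised counts with a median of 9.5, High males from 2 to 33 with a median of 10.0. Low females ran from 2 to 33 with a median of 16.5 and Low males from 2 to 63 with a median of 17.5. The lines overlapped widely, though only 4 of 24 High mice exceeded the Low median. The means were 10.8 ± 7.42 in High and 19.0 ± 12.7 in Low (SD, n = 24), a log2 difference of -0.50 with a standard error of 0.17 (limma, adjusted p = 0.273). Leaving out High male replicate 1 gave -0.55 (adjusted p = 0.215), and with library weights the value was -0.59 (adjusted p = 0.0685). That mouse had a Kcns1 value of 28, above the High mean, so leaving it out could only widen the difference. Low male replicate 6, which had the highest value of 63, was not left out. Over 10 settings the adjusted p ran from 0.0685 to 0.367. Kcns1 was also highest in Low male replicate 6, the library with the highest pyramidal markers; with the pyramidal mean in the model the difference was -0.47. At these low values the difference depends on the pseudocount, from -0.73 with a pseudocount of 1 to -0.25 with 28.

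Kcnu1, whose lowest listed exon start is 26960095 on chromosome 8 (mm9), had the next smallest p, with means of 33.5 ± 12.3 in High and 24.3 ± 10.3 in Low (SD, n = 24). Its log2 difference was 0.37 with a standard error of 0.14 (limma, adjusted p = 0.324). The Low median was exceeded by 18 of 24 High mice. The values overlapped, from 6 to 58 in High females and from 12 to 29 in Low males. The next members were Kcnj14, the inward rectifier Kir2.4, at 0.22, Kcne1l at -0.21, and Kcnk13, the K2P channel THIK-1 known from microglia, at 0.29. Kcnn2, the small-conductance channel SK2, stood at 0.12, Kcnq1 at 0.23 and Kcng1 at 0.19. The adjusted p of these 6 lay between 0.468 and 0.533. In Kcne1l only 3 of 24 High mice exceeded the Low median, with means of 47.3 ± 11.3 and 56.4 ± 14.5 (SD, n = 24).

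**Figure D3:**
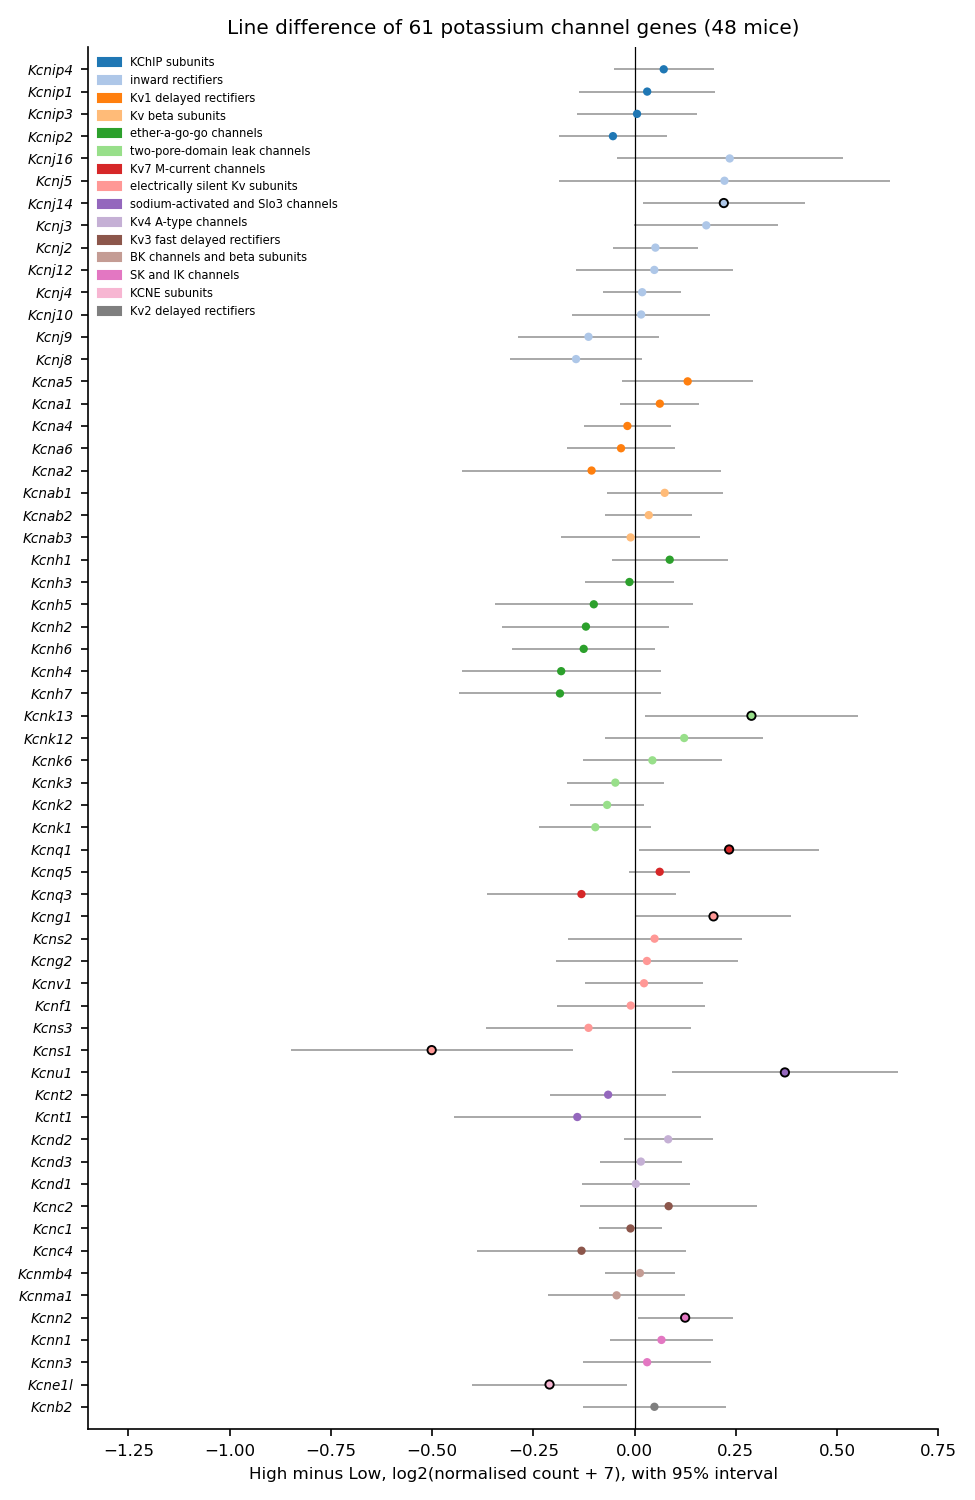
High minus Low difference of 61 of the 65 genes on the log2(normalised count + 7) scale (dot) with its 95% interval (bar), in family order; black rings mark the 8 genes at an unadjusted p under 0.05. Differences run from -0.50 (Kcns1) to 0.37 (Kcnu1), and no gene passed the adjusted threshold.

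The abundant genes gave narrow intervals around 0. Kcnj4 had a line difference of 0.02 on the log2 scale (95% interval -0.08 to 0.11), with means of 2702 ± 305 in High and 2669 ± 307 in Low (SD, n = 24). Kcnip2 had -0.05 (-0.19 to 0.08) and Kcna1 0.06 (-0.04 to 0.16). For these genes line differences beyond those bounds are outside the 95% interval, which is not adjusted for the number of genes. Kcnt1 was less certain, at -0.14 (-0.45 to 0.17).

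By family the differences were small and mixed. Of the 7 ether-a-go-go genes 6 were lower in High, with a median log2 difference of -0.12 and none at an unadjusted p under 0.05. Of the 10 inward rectifiers 8 were higher, with a median of 0.05. The 3 SK genes and the 3 Kv4 genes were all above 0, with medians of 0.07 and 0.02. Kv1 genes had a median of -0.02 and K2P genes of -0.0019. None of these counts comes with a test of the family.

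The line difference was then taken in each sex. In females limma called 0 of 65 members (0.0259% of all genes). In 3 (4.62%, against 4.68% of all genes) the unadjusted p was under 0.05, all lower in High. Kcnj8, the Kir6.1 pore of vascular ATP-sensitive channels, ran from 22 to 50 with a median of 41.5 in High females and from 39 to 77 with a median of 45 in Low females. The groups overlapped, with means of 37.2 ± 8.38 and 48.3 ± 10.8 (SD, n = 12), and the log2 difference was -0.33 (limma, adjusted p = 0.777). The others were Kcne1l at -0.32 (adjusted p = 0.949) and Kcns1 at -0.51 (adjusted p = 0.9999).

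In males 0 of 65 members were called (0% of all genes). In 5 (7.69%, against 6.92% of all genes) the unadjusted p was under 0.05, all higher in High. Kcnn2 ran from 411 to 541 with a median of 469 in High males and from 299 to 524 with a median of 392 in Low males. All 12 High males lay above the median of Low males, though the ranges overlapped, and the means were 464 ± 37.0 and 392 ± 62.2 (SD, n = 12). Its log2 difference was 0.25 (limma, adjusted p = 0.453). In females the Kcnn2 means were 431 ± 72.1 in High and 431 ± 69.97 in Low. The other 4 were Kcnk13 at 0.45, Kcnk12, the silent K2P channel THIK-2, at 0.30, Kcna5, the delayed rectifier Kv1.5, at 0.24, and Kcnq1 at 0.32, with adjusted p from 0.634 to 0.718.

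The difference between the sexes in the line effect was tested as an interaction. It called 0 of 65 members (0% of all genes). In 3 (4.62%, against 2.38% of all genes) the unadjusted p was under 0.05: Kcnj8 at -0.37, Kcnn2 at -0.25 and Kcnn3 at -0.32 on the log2 scale. All 3 had an adjusted p of 0.9999 (limma). An unequal line effect in the sexes was therefore not established for any channel gene.

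**Figure D4:**
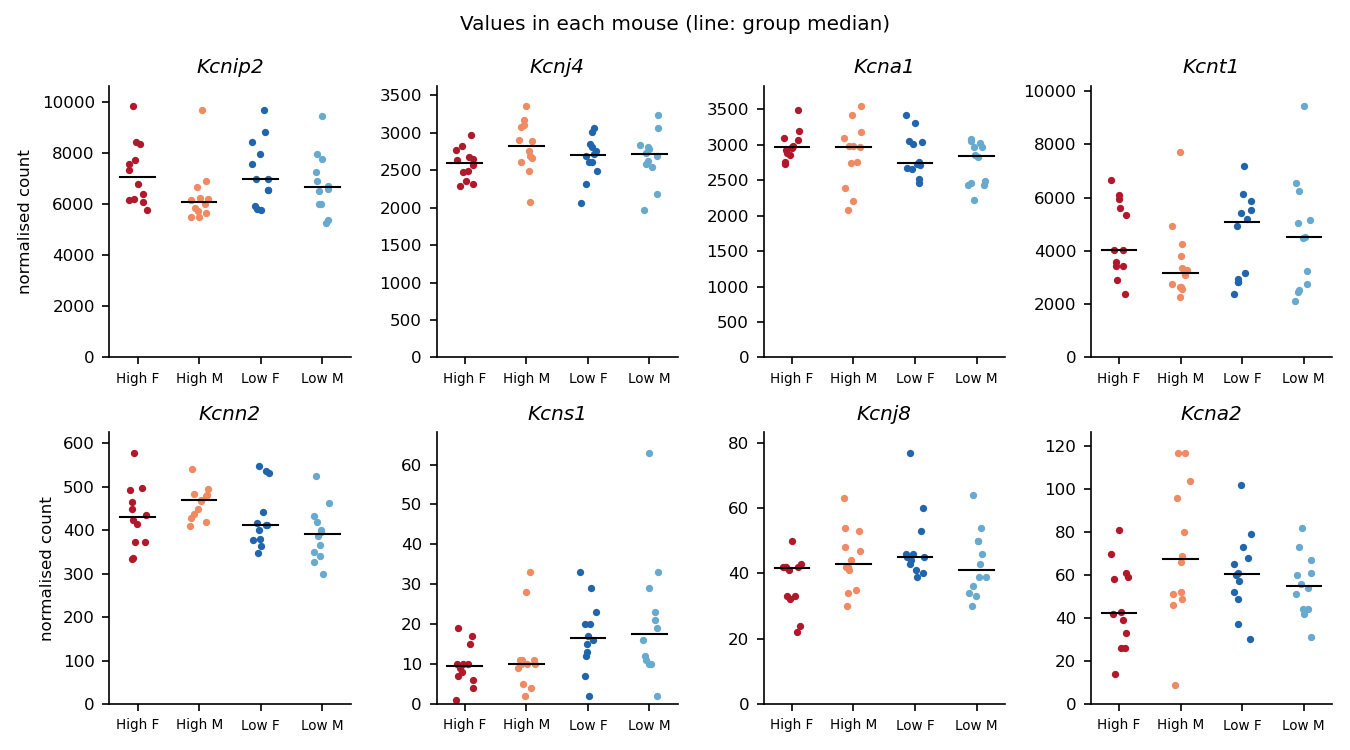
Normalised counts of 8 genes in each mouse, 12 per group, with the group median as a line; each panel has its own axis from 0. Kcnip2, Kcnj4 and Kcna1 are abundant and overlap between groups, Kcnt1 spreads widely within every group, Kcnn2 has its lowest median, 392, in Low males, and Kcns1 is low throughout.

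Females and males were compared over both lines. Limma called 0 of 65 members (0.0776% of all genes), and the smallest adjusted p was 0.982. In 5 (7.69%, against 4.23% of all genes) the unadjusted p was under 0.05. Kcnk12 was 28.4 ± 9.25 in females and 35.5 ± 8.30 in males (SD, n = 24), a log2 difference of -0.28. Kcnc4, the Kv3.4 channel, was 69.3 ± 20.8 and 91.5 ± 45.4, a difference of -0.31. The highest Kcnc4 value, 257, was in Low male replicate 6. Kcnj3, the G protein-gated subunit GIRK1, had -0.20, Kcnj14 0.23 and Kcnip2 0.14.

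Group means lay close together for most genes. The ratio of the highest to the lowest group mean had a median of 1.13 over the 65 genes and was under 1.2 in 45 of them. The within-group SD of log2 values was largest for Kcnj5 (0.73), Kcns1 (0.61), Kcna2 (0.57) and Kcnt1 (0.55), and smallest for Kcnq5 (0.13), Kcnc1 (0.13) and Kcnmb4 (0.14). Kcnt1 stood out among abundant genes: it ran from 2125 in Low male replicate 1 to 9435 in Low male replicate 10. Among genes with a mean of 100 or more, the median SD was 0.25 for 44 members and 0.19 for 11119 genes in all. Whether mice of one line spread more than the other was tested on absolute deviations. Limma called 0 of 65 members (0.0582% of all genes). The unadjusted p was under 0.05 in 4, against 3.99% of all genes: Kcna2, Kcnt2 and Kcns3 were more spread in High and Kcnk6 in Low.

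Variation within groups was then set against the mean log2 value of marker lists for 11 cell types or regions, with slopes in log2 units per log2 unit of the marker mean. Such a slope cannot tell more cells of a type from more RNA per cell. Of the 65 genes 45 (69.2%, against 67.6% of all genes) had a called slope on at least 1 list and 10 (15.4% against 19.5%) on 3 or more, shares near those of all genes. The marker means themselves were compared between the lines by permuting line within each sex (2-sided permutation test, 11 lists). The oligodendrocyte and myelin mean was 9.33 ± 0.373 in High and 9.55 ± 0.284 in Low on the log2 scale (SD, n = 24), a difference of -0.23 (permutation p = 0.0221, adjusted 0.244); 5 of the 24 High mice exceeded the median of Low mice. The astrocyte mean was 10.6 ± 0.197 and 10.5 ± 0.176, a difference of 0.11 (permutation p = 0.0467, adjusted 0.257); 18 of 24 exceeded it. The other 9 lists had differences from -0.07 to 0.17 and adjusted p-values from 0.524 to 0.946. With any 1 of the 11 means in the model, limma still called 0 members between the lines.

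With the medium spiny mean, 14 members rose (21.5%, against 5.22% of all genes) and 3 fell (4.62% against 2.38%). The steepest called slopes were those of Kcnv1, the silent subunit Kv8.1, at 1.35 ± 0.19 (SE) and Kcnab1 at 1.32 ± 0.18. Kcnh1 followed at 1.13 ± 0.21 and Kcna5 at 1.04 ± 0.26. Kcna1 (0.94 ± 0.12, adjusted p = 1.77e-07 by limma) and Kcnj4 (0.90 ± 0.12, adjusted p = 4.22e-07) were among those that rose. Kcnj5 fell at -3.16 ± 0.60, Kcnc2 at -1.59 ± 0.33 and Kcnc4 at -1.52 ± 0.42. The marker mean spanned only 12.5 to 13.1 on the log2 scale. Without the 2 libraries farthest from its median, 10 members were called rather than 17, and Kcna5 and Kcnc4 were no longer among them.

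The Kv3 genes Kcnc4 and Kcnc2, known from fast-spiking interneurons, rose with the interneuron list. With its mean 6 members rose (9.23% against 4.56% of all genes) and 4 fell (6.15% against 6.26%). Kcnc4 rose at 1.59 ± 0.32 (SE), Kcnc2 at 1.04 ± 0.30, Kcnf1 at 0.87 ± 0.25 and Kcnj3 at 0.74 ± 0.25. Kcnt1 fell at -1.56 ± 0.41, Kcnh4 at -1.29 ± 0.33, Kcnip2 at -0.86 ± 0.16 and Kcnd1 at -0.61 ± 0.18. Under alternative settings 4 checks of slopes on the interneuron list came out weaker and 24 the same. The members concerned are not named here. On the septal and diencephalic list 2 rose (3.08% against 1.04%), Kcnj5 at 1.59 ± 0.33 and Kcnc2 at 0.78 ± 0.19, and 2 fell (3.08% against 0.375%), Kcna1 at -0.35 ± 0.08 and Kcnj4 at -0.32 ± 0.08. Without the 2 farthest libraries only 2 of these 4 were called, and Kcna1 and Kcnj4 were not.

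With the astrocyte mean 6 members rose (9.23% against 21.5% of all genes) and 9 fell (13.8% against 16.9%), shares at or below those of all genes. Kcnj10 had the steepest positive slope at 1.00 ± 0.20 (SE; limma, adjusted p = 7.66e-05). Kcnip1 (0.81 ± 0.21), Kcnk1 (0.64 ± 0.17) and Kcnip4 (0.59 ± 0.15) also rose. Kcnt1 fell most, at -2.27 ± 0.28 (limma, adjusted p = 7.72e-08), then Kcnh4 at -1.44 ± 0.28. The transcripts used, untranslated parts included, held 53.8% to 61.2% GC in the 9 that fell and 42.7% to 51.8% in the 6 that rose. The median over members was 54.2%. The part of base composition was not tested. On the choroid plexus and ependymal list 2 rose (3.08% against 16.3%), Kcnj16 at 0.44 ± 0.13 and Kcnip4 at 0.19 ± 0.06. There 8 fell (12.3% against 14.9%), led by Kcnt1 at -0.76 ± 0.11 and Kcnh4 at -0.52 ± 0.10. Ttr and Folr1, defining choroid plexus markers, did not pass the value filter, and the 5 markers kept summed to 173 to 676 normalised counts.

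**Figure D5:**
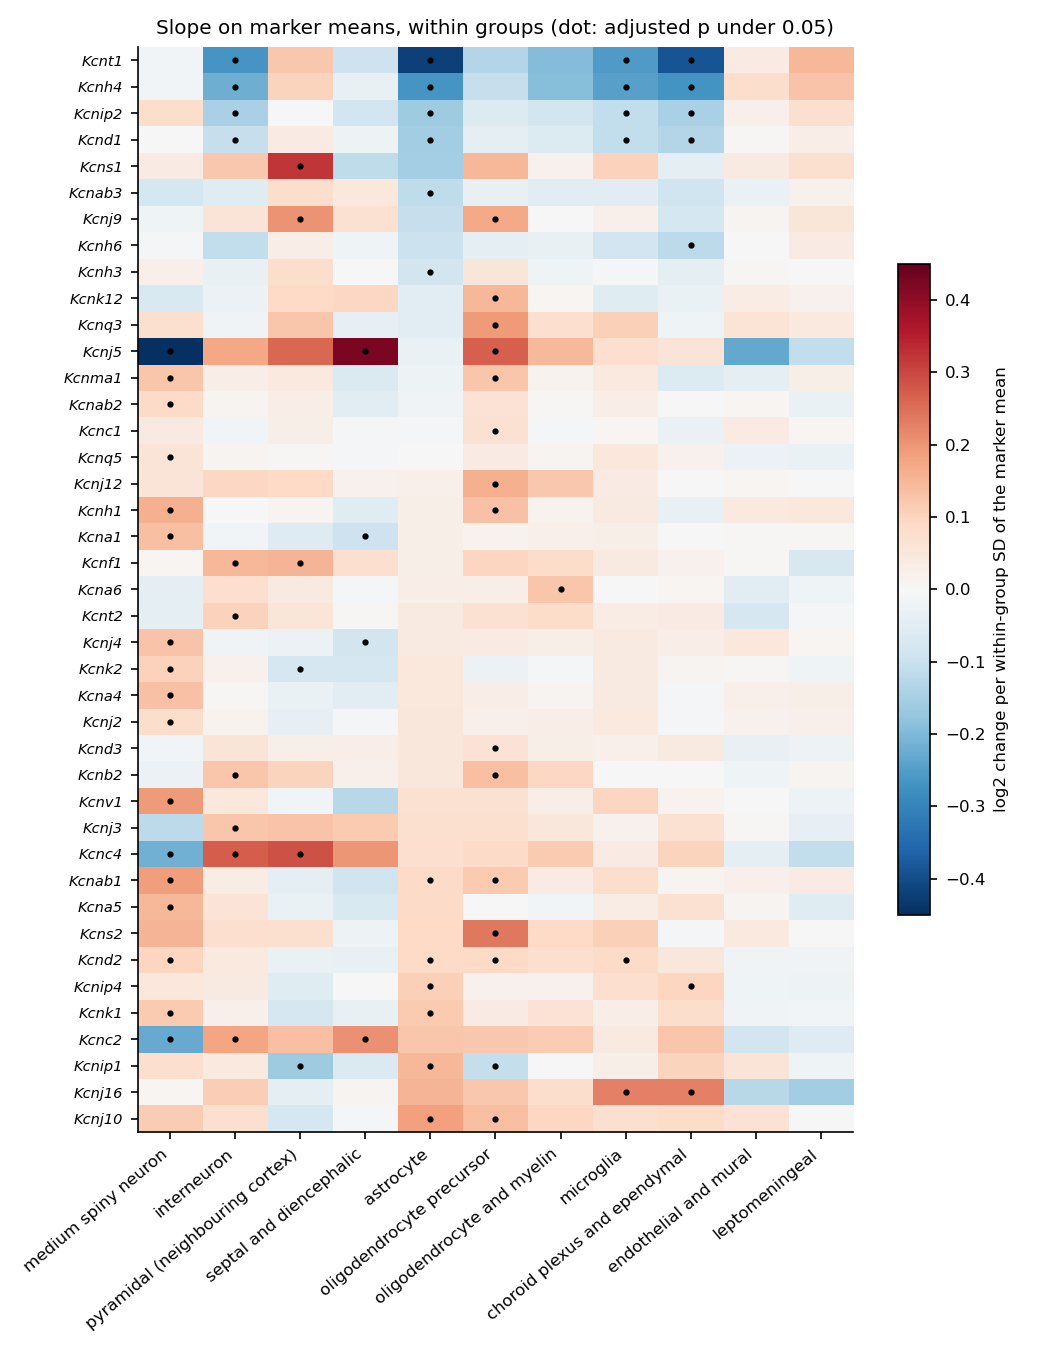
Slope of 41 of the 45 genes with at least 1 called slope on 11 marker means, as log2 change per within-group SD of the marker mean, ordered by the astrocyte slope; dots mark an adjusted p under 0.05. Kcnt1, Kcnh4, Kcnip2 and Kcnd1 are negative and called on the same 4 lists.

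Kcnt1, Kcnh4, Kcnip2 and Kcnd1 had called negative slopes on the same 4 lists: interneuron, astrocyte, microglia and choroid plexus and ependymal. On the microglia list these were -1.40 ± 0.39 (SE), -1.33 ± 0.29, -0.61 ± 0.17 and -0.60 ± 0.17, the only members that fell there (6.15% against 6.85% of all genes). Kcnj16 at 1.23 ± 0.36 and Kcnd2 at 0.47 ± 0.14 rose with it (3.08% against 5.91%). Without the 2 farthest libraries Kcnt1, Kcnd1 and Kcnd2 were not called on the microglia list. Lists share mice and correlate with one another, so these slopes are not separate evidence.

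With the oligodendrocyte precursor mean 15 members rose (23.1% against 18.0% of all genes) and 1 fell (1.54% against 12.6%). Those that rose were led by Kcnj5 at 1.59 ± 0.59 (SE), Kcns2 at 1.41 ± 0.26 and Kcnq3 at 1.14 ± 0.32, and Kcnip1 fell at -0.63 ± 0.24. On the pyramidal list 4 rose (6.15% against 1.97%) and 2 fell (3.08% against 1.60%). Kcns1 rose at 0.44 ± 0.11, Kcnc4 at 0.39 ± 0.07, Kcnj9 at 0.28 ± 0.05 and Kcnf1 at 0.21 ± 0.06, while Kcnip1 fell at -0.22 ± 0.05 and Kcnk2 at -0.10 ± 0.03. Without Low male replicate 6 and High male replicate 1, the 2 libraries with the most pyramidal RNA, 0 of the 6 were called. Kcna6 alone rose with the oligodendrocyte and myelin mean, at 0.38 ± 0.09 (1.54% against 0.459%, with 0 falling against 0.0712%), and it too was not called without the 2 farthest libraries. The endothelial and leptomeningeal lists called 0 members, at 0.0388% and 0.00647% of all genes.

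Where along the transcript reads fell also differed between libraries. The share of exon values in the last listed exons ran from 46.8% in High male replicate 1 to 59.6% in Low male replicate 12, at 54.7% ± 2.57 in High and 54.3% ± 2.36 in Low (SD, n = 24). Of the 65 genes 2 rose with that share (18.0% of all genes), Kcnip1 at 0.06 per percentage point and Kcnn2 at 0.04. Another 21 fell (21.7% of all genes), led by Kcns2 and Kcns1 at -0.12 each and Kcnq3 at -0.11. With this share added to the models, the precursor list called 3 members (4.46% of all genes), none of them among the 16, and the pyramidal list 2 (0.763% of all genes). Calls on the precursor list thus dropped among all genes as well. The astrocyte list called 17 (44.1% of all genes), including all 15. The line and sex comparisons still called 0 members each.

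The last listed exon, in the direction of transcription, held a median of 84.8% of a member's exon values, and 80% or more in 37 of 65 genes. In genes with 2 listed exons, such as Kcna1 and Kcnj4, that exon also holds coding sequence. Among the 54 members with 3 or more listed exons the median was 80.4%, and 11 had under 50% there. Kcnip2 had 0.0347% in its last listed exon and 69.8% in exon 10 of 11, Kcnh4 had 16.2% in the last and Kcnt1 36.8%. The wide spread of Kcnt1 was present both in its last exon and in its other 31 exons summed. Its last exon ran from 878 to 3398 normalised counts and the sum of the others from 1068 to 6038. The SDs of their log2 values were 0.47 and 0.62. Single exons were not compared in spread. The exon table listed 578 exons of members, of which 243 were kept. Exon usage could be tested in 33 members with 2 or more kept exons. Limma's diffSplice called 0 of 33 between the lines (0.132% of all genes tested) and 0 between the sexes (0.0711%). Between the lines 0 members had an unadjusted Simes p under 0.05 (1.99% of all genes), and Kcnn3 was smallest at 0.0611. Between the sexes there was 1 (1.06% of all genes), Kcnn3 at 0.00132 (adjusted p = 0.999). Its first listed exon, which starts at 89324086 on chromosome 3 (mm9), had 14.3 ± 3.94 in females and 10.3 ± 3.84 in males (SD, n = 24), and the relative difference from its other exons was 0.39 on the log2 scale.

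Genes that work with these channels were described from 2 lists. Of 31 channel partners, such as anchoring proteins and ATP-sensitive channel regulators, 29 were tested. For line limma called 0, against 0.291% of all genes. The unadjusted p was under 0.05 in 3 of the 29, against 9.08% of all genes. Kctd8, an auxiliary subunit of GABA-B receptors that couple to Kir3 channels, was 492 ± 134 in High and 586 ± 129 in Low (SD, n = 24; log2 difference -0.26, adjusted p = 0.381). Cntnap2, which clusters Kv1 channels on axons, was 1742 ± 238 and 1604 ± 200 (0.12, adjusted p = 0.468). Of 14 potassium transport genes, the sodium pump subunits, cation cotransporters and cation exchangers, all were tested. For line limma called 0 (0.291% of all genes), and 0 had an unadjusted p under 0.05 (9.08% of all genes).

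Some values carry reads that could belong elsewhere. Over 25-base words, 39.2% of Kcna6, 37.0% of Kcnj14, 34.4% of Kcnmb4 and 30.5% of Kcnj3 were shared with another annotated transcript. Antisense transcripts Kcnmb4os1 and Kcnmb4os2 ran from 138 to 331 and from 93 to 177, and the strand setting of the counting is not known here, so Kcnmb4 cannot be told apart from them.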

How the data were processed

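Messenger RNA of the accumbens shell was measured in 48 mice; per the labels' protocols the tissue was laser microdissected and the libraries were poly(A)-selected TruSeq libraries. The authors deposited a gene table and an exon table whose values are a score: read counts that they normalised and rounded to whole numbers, per the table names and the values. They are called normalised counts in the text. Per the submitters' processing notes the build was mm9 and the tools included STAR 2.4.0 and edgeR 3.4.2 (with R 3.0.2), besides CASAVA and FastQC. The counter, strand setting and normalisation are not given in the sources used here. Depth before scaling is unknown, so no counting interval is given. Every column was matched to 1 mouse, and no library was left out of the main fits.

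Genes at 14 or more in at least 12 libraries were fitted with limma 3.58.1 in R 4.3.3 on log2(value + 7), with a mean-variance trend and a mean per group; values were read with data.table (1.17.8). Fold differences on this scale understate changes of low genes. Benjamini-Hochberg adjustment ran over all 15468 genes, and a call means an adjusted p under 0.05. All tests are two-sided. Exon usage used diffSplice with Simes p-values, on exons under the same filter. Slopes on marker means used the same fit with 1 centred covariate and the genes outside the list. The share of exon values in last listed exons was computed per library over all genes. Line differences of marker means used 100000 permutations of line within sex. Each test across genes was checked on simulated data.

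GENCODE M21 on GRCm38 supplied symbols, exon lengths and coding sequences, matched on Ensembl identifiers for 32897 genes; 4723 had no match. The plan had been to divide by the exon lengths of the deposited table, but that table gives exon starts only, so the union of GENCODE exons was used. No position was converted between builds.

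Named genes followed a rule: the 20 highest members per kb, the highest and lowest of each family, members with an unadjusted p under 0.05 (up to 10 a comparison), up to 4 called slopes per list and direction, the smallest p-values for exon usage and partner lists, and 3 members on each side of the threshold. Results of some members that the rule selects are not reported here by name; counts and shares include them. Abundant members shown beside the line comparison, members singled out for spread, precise intervals or repeated slopes, and genes not kept that are named were chosen after their values were seen. The members and lists were chosen with earlier results of these data known. Alternatives covered the pseudocount, filter, scaling, library weights, a left-out library, covariates and gene length.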

Additional observations from a re-analysis of the deposited data

How the results depend on the processing

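In all alternatives run, 0 members were called for line, line in each sex, the interaction, sex, variability and exon usage; the log2 differences named for lines and sexes kept their direction throughout. The stricter filter (70 or more in 12 libraries) left 51 members and moved the counts at an unadjusted p under 0.05 to 3 for line, 0 in females, 3 in males, 1 for the interaction and 3 for sex; library weights gave 5 in females. Without the 2 libraries farthest from each marker median, called slopes numbered 0 for the pyramidal list, 10 for medium spiny, 2 for septal, 0 for oligodendrocyte and myelin, and 3 for microglia. Counts for the other lists are not given here. Shares over all genes are not given for the counts of the stricter filter, library weights and left-out libraries. Whether members changed more than all genes there cannot be read from these counts. With the last-exon share as a covariate, an alternative added after seeing the data, they numbered 2 for pyramidal, 2 for oligodendrocyte and myelin and 3 for precursor; among slopes called without it only that of Kcnma1 on the precursor list changed sign, from 0.73 to -0.01. The 9 other marker means as covariates of the line comparison were also added after seeing the data. The cause was not tested.

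Shares by family depended on gene length. The levels per kb of single genes and the Kcnip2 to Kcnd2 ratio rest on the same division. With no division by length they were 18.7% KChIP, 13.2% Kv7, 12.1% Kv beta, 9.91% inward rectifiers, 9.50% ether-a-go-go, 8.84% Kv1, 8.12% sodium-activated, 4.87% K2P, 4.73% Kv4, 2.76% Kv3, 1.27% SK, 1.21% BK, 0.425% Kv2 and 0.0942% KCNE. With the longest coding transcript, also added later, they were 28.9% KChIP, 13.1% Kv beta, 12.3% inward rectifiers, 8.04% Kv1, 6.29% Kv7, 5.90% K2P, 3.53% silent Kv, 3.16% Kv4, 2.403% BK, 1.64% Kv3, 1.29% SK and 0.139% Kv2. KChIP genes led under each length used; among pore-forming families Kv7 led without division by length. Values over kept exons per kb were not run, since exon ends were not used here.

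No paired analysis was possible because the labels give each mouse its own sample number and no number is shared between groups. Each line is 1 population, so line and drift cannot be told apart. Genes under about 20 normalised counts, such as Kcns1, Kcnq1 and Kcnj5, give the least certain differences.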
